A study of Mus musculus with 55 samples.

Results

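The circadian clock genes Npas2, Clock, Per1, Per2, Per3, Nr1d1 and Nr1d2 and the PAR bZIP genes Dbp, Tef and Hlf were followed across 53 mouse liver RNA sequencing libraries. The 10 genes were chosen by symbol with earlier results of these libraries already known, and they are 10 of the 34490 gene symbols that the count tables of both batches share. Which measured values led to that choice was not given, so the level of each gene and each of its contrasts between groups is a description of these libraries and not independent evidence about the clock.

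In the series, adult C57BL/6 mice with floxed alleles of Rnf43 and Znrf3, ubiquitin ligases that remove WNT receptors from the cell surface, lost the RING domain exons of both genes in hepatocytes (R&Zdel). Deletion followed either a hepatotropic AAV8 virus that carries Cre under the hepatocyte promoter TBG or tamoxifen in mice with the tamoxifen-inducible AlbCreERT2. R&Zflox controls had the same floxed alleles and were given AAV8-null virus or the vehicle of tamoxifen. Livers were taken undamaged 1, 3 or 7 months after induction (1M, 3M, 7M), 7 or 21 days after partial hepatectomy (PHx), or 4, 50 or 170 days after the end of chronic damage by repeated carbon tetrachloride (CD). In the CD experiment the paper gave tamoxifen again, to limit growth of hepatocytes that had escaped deletion.

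Batch 1 held 23 libraries, from mice given tamoxifen or its vehicle wherever an induction is listed, and batch 2 held 30, of which the 1M, 3M and PHx mice received virus and the 7M mice tamoxifen or vehicle. A group could be taken from the labels for 48 libraries, 5 libraries of batch 1 were left without a group because their titles and characteristics contradict each other, and 2 further R&Zdel_3M samples were not analysed here. The 1M set of batch 2 comprised 4 R&Zdel and 4 R&Zflox livers, its 3M set 1 R&Zdel and 3 R&Zflox livers, its 7M set 3 of each genotype, and each of its PHx sets likewise 3 of each. In batch 1 there were 1 R&Zdel and 2 R&Zflox livers for 3M, 2 of each genotype for 7M, and 2 of each for every time after CD, save for a single R&Zflox liver with 50 days of recovery. Library totals were 11721687 to 38692089 counts with a median of 22982428, no pair of libraries was identical, and the highest correlation of a pair was 0.9949. Nothing in the labels says that every replicate is a separate mouse, and if not, the p-values measure technical spread. R&Zdel_3M replicate 4 and R&Zflox_7M replicate 5 of batch 1 were placed by their genotype and time labels, which their titles contradict. The 2 R&Zflox libraries labelled 170 days after CD are entered in the study's sample list under both 50 and 170 days, so their recovery time is in doubt and every 170-day value of the controls carries that doubt. The listed sex matched the Y-linked and Xist counts in 48 of 49 libraries that had one, and R&Zflox_PHx_7d replicate 3, listed male, did not match. The mice were kept in a standard dark and light cycle. The hour at which each liver was taken is not given in the sources used here, and its part in every level below was not tested.

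The mammalian clock is a feedback loop. CLOCK or its relative NPAS2 pairs with BMAL1, the product of Arntl, and switches on genes with E-box elements, among them the Per genes, Nr1d1, Nr1d2 and Dbp. PER proteins join CRY proteins and shut that activator down, while NR1D1 and NR1D2 (REV-ERB alpha and beta) repress Arntl, Npas2 and Nfil3 through RORE elements. DBP, TEF and HLF are transcription factors of the PAR bZIP family that bind D-box elements. In the liver they carry clock time to drug and bile acid metabolism, and Dbp transcript is known for a very large daily swing. NFIL3 binds the same D-boxes and represses.

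These elements can be read in the promoters of some of the genes. A promoter here is the 250 bases before and 50 after a transcription start, and the table of RefSeq promoters on GRCm38.p6 (the patched form of the mm10 build the counts used) held 13 promoters for 9 of the 10 genes, all but Per2. The letters CACGTG (E-box), TTATGTAA or TTATGCAA (D-box, either strand) and the RORE consensus were searched. An E-box was found in 3 of the 13 promoters, at Tef (both promoters) and Per1, against 2349 of all 32851 promoters, which is 7.15%. A D-box stood in 2 of the 13, at Per3 and Per1, against 546 of all promoters or 1.66%, and a RORE in 0 of the 13 against 126 or 0.384%. The search covers short windows only, and elements elsewhere in a gene were not looked for. The stretches before the start are shown for the 3 genes with a match, 5′ to 3′ on the strand of the gene, with the matching letters in capitals, because Tef, Per1 and Per3 carry several of the results below. The stretch of Per3, chr4:151044666-151044915 (minus strand), has 2 D-boxes at bases 46 to 53 and 93 to 100, that of Per1, chr11:69098699-69098948 (plus strand), an E-box at bases 85 to 90 and a D-box at bases 227 to 234, and that of Tef, chr15:81802423-81802672 (plus strand), an E-box at bases 124 to 129, counted from its first base.
Per3: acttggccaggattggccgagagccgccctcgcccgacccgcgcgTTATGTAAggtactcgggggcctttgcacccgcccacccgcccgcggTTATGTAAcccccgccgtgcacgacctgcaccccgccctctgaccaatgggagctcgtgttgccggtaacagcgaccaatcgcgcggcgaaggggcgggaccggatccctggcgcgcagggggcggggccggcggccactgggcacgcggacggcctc
Per1: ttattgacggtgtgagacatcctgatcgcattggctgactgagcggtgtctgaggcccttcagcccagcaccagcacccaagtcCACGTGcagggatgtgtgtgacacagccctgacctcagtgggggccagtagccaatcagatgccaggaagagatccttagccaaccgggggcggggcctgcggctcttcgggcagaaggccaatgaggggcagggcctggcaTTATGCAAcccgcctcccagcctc
Tef: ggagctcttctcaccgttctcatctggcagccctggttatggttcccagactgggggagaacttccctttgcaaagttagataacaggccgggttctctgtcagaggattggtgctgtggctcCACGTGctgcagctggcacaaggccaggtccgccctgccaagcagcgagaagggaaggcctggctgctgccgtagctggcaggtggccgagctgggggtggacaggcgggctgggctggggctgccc

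Levels are given as CPM, the count of a gene per 1000000 counts over all symbols of its library. All 10 genes were detected in both batches. Dbp (chr7:45705100-45710203, mm10) ranged from 1.46 to 123 CPM in batch 1 with a median of 29.2, and from 0 to 162 CPM in batch 2 with a median of 8.04. Hlf (chr11:90336535-90390917) had a much narrower range, 11.5 to 35.4 CPM in batch 1 and 9.99 to 66.4 CPM in batch 2. Per kilobase of exon, which allows levels of different genes to be set side by side, Nr1d1 had the highest batch 2 median of the 10 with 21.4 CPM per kb, then Tef with 11.3, and Npas2 had the lowest with 0.202. Dbp was at 0 counts in 3 libraries, Npas2 in 11, Per1 in 3 and Per3 in 1, where the limit a count of 0 allows (3 counts) was 0.101 to 0.256 CPM for Dbp and 0.111 to 0.21 CPM for Npas2. Intervals and limits cover counting error only.

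In the undamaged livers of batch 2, Dbp was high in both genotypes at 7M and low in both at 3M. At 7M, Dbp was 91.8, 154 and 126 CPM in R&Zdel replicates 3 to 5 and 162, 123 and 118 CPM in R&Zflox replicates 2 to 4. At 3M, Dbp was 0.147, 0 and 5.34 CPM in R&Zflox replicates 3 to 5 and 1.98 CPM in the single R&Zdel library (exact 95% interval 1.42 to 2.68). These ages did not overlap in either genotype, and the share over all genes was not counted. Set of mice, induction by virus or tamoxifen and age cannot be told apart here.

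At 1M the R&Zdel livers divided. Dbp was 105 and 101 CPM in R&Zdel_1M replicates 1 and 2 and 1.31 and 0.0477 CPM in replicates 3 and 4. The first pair are females and the second pair males, whereas in R&Zflox_1M both females (replicates 3 and 4) had 0 counts and the males (replicates 1 and 2) 4.37 and 10.7 CPM. The direction between sexes thus differed between genotypes, and sex, day and hour were not separable in these 8 libraries.

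Tef, the other PAR bZIP gene with a wide range, was also high at 7M and divided at 1M. Tef (chr15:81802673-81826863) was 104, 99, 8.5 and 16.1 CPM in R&Zdel_1M replicates 1 to 4 and 10, 93.9, 1.02 and 9.32 CPM in R&Zflox_1M replicates 1 to 4. At 7M it was 140, 145 and 102 CPM in R&Zdel and 172, 142 and 99.4 CPM in R&Zflox. R&Zflox_1M replicate 2 stood apart from the other 3 R&Zflox_1M libraries in Tef. Hlf in the same 8 libraries ran from 9.99 to 41.3 CPM, and R&Zdel and R&Zflox overlapped.

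The activator side ran the other way in part. Npas2 (chr1:39193702-39363240), partner of BMAL1, was at 0 counts in R&Zdel_1M replicates 1 and 2, the libraries with high Dbp, and 0.678 and 2.1 CPM in replicates 3 and 4. In the R&Zflox_3M libraries, with low Dbp, Npas2 was 7.51, 8.79 and 26 CPM, and in R&Zflox_7M, with high Dbp, it was 0.87, 0 and 0 CPM. R&Zdel_7M replicate 5 was an exception with 5.51 CPM of Npas2 beside 126 CPM of Dbp. Arntl, which is not among the 10 genes, was 0.0742, 0, 23.1 and 9.53 CPM in R&Zdel_1M replicates 1 to 4, high where Dbp was low. Nfil3, the repressor at D-boxes, was 15.7, 3.74, 68.3 and 59.7 CPM in the same libraries. Clock (chr5:76209868-76305603) showed no such division, with 15.9, 37.7, 41.8 and 21.4 CPM.

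**Figure D1:**
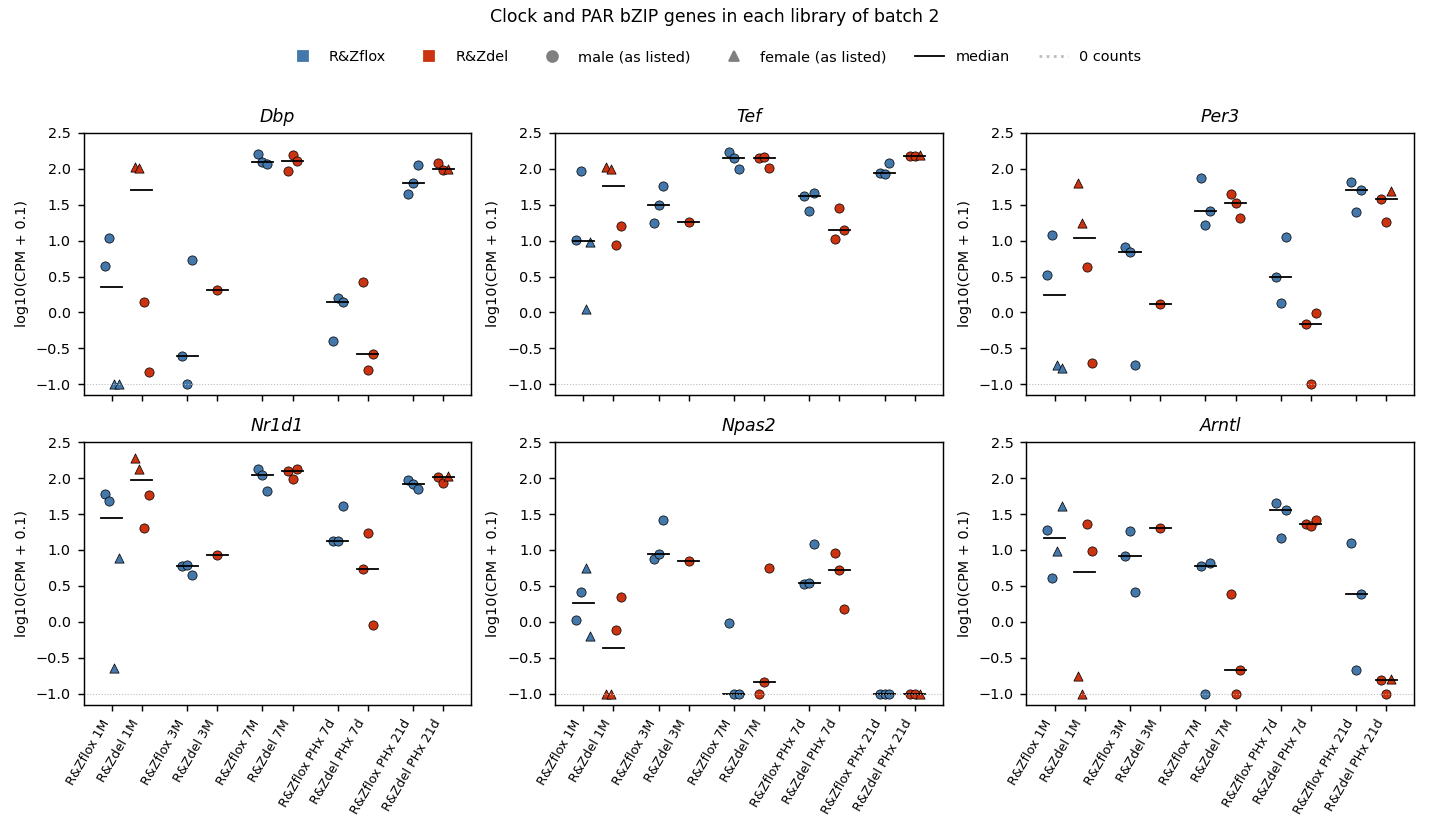
Dbp, Tef, Per3, Nr1d1, Npas2 and Arntl in each batch 2 library by genotype and condition, as CPM on a log10 axis after adding 0.1. Circles are males, triangles females by the listed sex, black lines group medians and the dotted line 0 counts; Dbp, Tef and Nr1d1 are high at 7M and 21 days after PHx and low at 7 days after PHx in both genotypes, while Arntl is high at 7 days after PHx.

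The Per and Rev-erb genes of the undamaged batch 2 livers shared parts of this. Per3 (chr4:150997018-151044707) was 63.4, 17.5, 4.16 and 0.0953 CPM in R&Zdel_1M replicates 1 to 4. Nr1d1 (chr11:98767932-98775377) was 190, 132, 20.1 and 58.2 CPM in the same libraries. In R&Zflox_1M, Nr1d1 was 60.1, 47.6, 0.127 and 7.71 CPM in replicates 1 to 4, so the 2 female controls were the lowest of the 8. Per1 (chr11:69095108-69109965) was 20.4, 11.3, 0 and 0.906 CPM and Per2 (chr1:91415977-91459351) 16, 5.15, 5.92 and 0.0477 CPM in R&Zdel_1M. Nr1d2 (chr14:18204056-18239106) had the narrowest spread of these genes in that group, 25.7, 22, 8.45 and 15.1 CPM.

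After PHx, both genotypes had low Dbp at 7 days and high Dbp at 21 days. Dbp was 0.305, 1.5 and 1.3 CPM in R&Zflox and 2.58, 0.0571 and 0.163 CPM in R&Zdel at 7 days. At 21 days it was 43.7, 63.4 and 112 CPM in R&Zflox and 118, 95.9 and 100 CPM in R&Zdel. The 2 times did not overlap in either genotype. Tef was 41.7, 25.5 and 45.8 CPM in R&Zflox and 10.5, 28.3 and 13.8 CPM in R&Zdel at 7 days, and 88.2, 83.8 and 119 CPM against 149, 152 and 155 CPM at 21 days. Npas2 was 3.24, 3.36 and 12.1 CPM in R&Zflox and 9.02, 5.2 and 1.41 CPM in R&Zdel at 7 days, and it had 0 counts in all 6 libraries at 21 days. The mean of Npas2 at 7 days was 33.9 times the mean limit of 3 counts at 21 days in R&Zflox and 28.8 times in R&Zdel. These are ratios of group means, with 7-day SDs of 5.06 and 3.81 CPM, and single libraries can lie nearer to the limit. Arntl was 22.7, 21.8 and 25.6 CPM in R&Zdel at 7 days and 0.055, 0 and 0.0591 CPM at 21 days.

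The comparison of 21 with 7 days was added after these levels had been seen. In R&Zflox, 6 of the 10 genes did not overlap between the times, Dbp, Tef, Per3 and Nr1d1 higher and Npas2 and Clock lower at 21 days, where 12.5% of the 12773 genes tested did not overlap. In R&Zdel, 9 of the 10 did not overlap, all higher at 21 days except Npas2, with Clock the exception that overlapped, where 11.1% of all genes did not overlap. Genes were then tested with edgeR's quasi-likelihood F test across all genes, and a gene was called with a Benjamini-Hochberg adjusted p below 0.1 and an absolute log2 fold change above 1. By that rule 0 of the 10 genes were called between 21 and 7 days in R&Zflox, where 0.110% of all genes were called, and 0 of 10 in R&Zdel, where 0.0470% were. The count with an unadjusted p below 0.05 was 3 in R&Zflox and 7 in R&Zdel, and DESeq2 called 2 and 6. In R&Zdel, Per1 had a log2 fold change of 7.85 ± 2.15 (SE derived from the F statistic, n = 3 and 3, edgeR adjusted p 0.335) and Dbp 6.87 ± 2.11 (edgeR adjusted p 0.461). The median log2 fold change of the 10 genes was 3.20 in R&Zdel and 0.83 in R&Zflox, beside -0.05 and -0.03 over all genes. The study's sample list enters the 7-day mice under 0.5M and the 21-day mice under 1M. Time after surgery, time since induction and the day and hour of each collection cannot be told apart.

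Batch 1 gave the same kind of spread between libraries of a single group. Dbp was 106 CPM in R&Zflox_7M replicate 1 and 3.74 CPM in replicate 5, a female. It was 63.2 and 2.02 CPM in the 2 R&Zflox libraries labelled 170 days after CD (listed by the study under 50 days too), and 20.6 and 2.24 CPM in the 2 R&Zflox_3M libraries. In R&Zdel it was 61.4 and 103 CPM at 7M, 104 CPM in the single 3M library (exact 95% interval 100.5 to 107.7), and 74.4 and 29.2 CPM at 50 days after CD. The livers taken 4 days after CD were low in both genotypes, 2.83 and 1.46 CPM in R&Zflox and 6.43 and 4.79 CPM in R&Zdel. Within a group, the higher library had 28.4 times the Dbp of the lower in R&Zflox_7M, 31.3 times 170 days after CD in R&Zflox and 9.18 times in R&Zflox_3M.

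**Figure D2:**
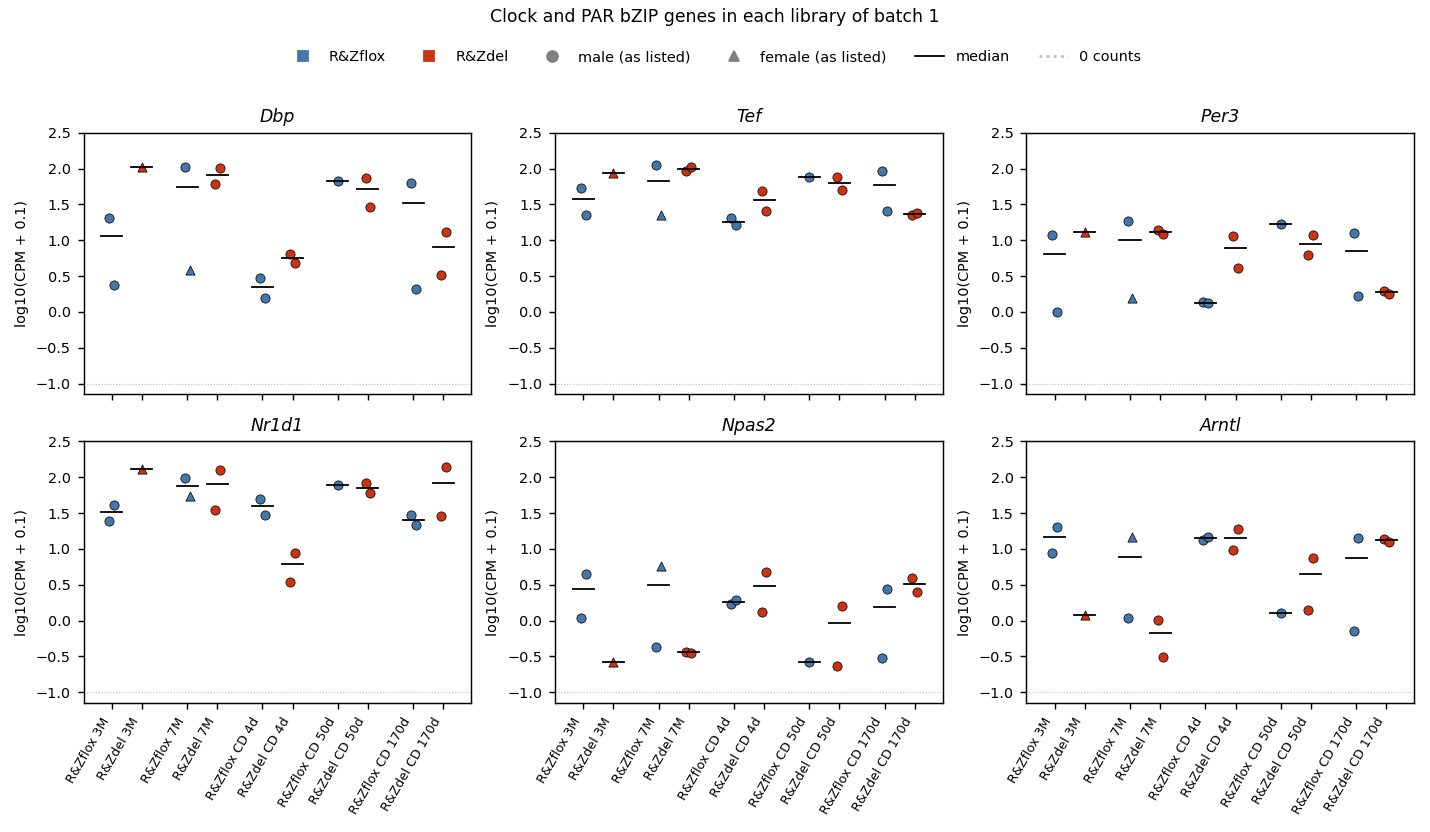
The same 6 genes in each batch 1 library, as CPM on a log10 axis after adding 0.1, with the symbols of the batch 2 plot. The 2 R&Zflox libraries at 7M lie at 106 and 3.74 CPM of Dbp, and Npas2 and Arntl lie in the reverse order.

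Within the pairs of batch 1, Tef went with Dbp, and Npas2 and Arntl went against it. Of the 8 groups of 2 libraries in batch 1, Tef was higher in the library with more Dbp in 8 of 8, and Npas2 and Arntl were lower there in 8 of 8. The log2 differences of Dbp were 0.42 to 4.91, those of Tef 0.09 to 2.27 and those of Npas2 -3.87 to -0.02, the smallest of which lie near 0. Nr1d2 was higher with Dbp in 7 of 8 pairs, Nr1d1 in 6 of 8, Per3 and Hlf in 5 of 8, and Per1 and Per2 in 4 of 8. Clock was lower with higher Dbp in 5 of 8. The widest pair, R&Zflox 170 days after CD, had 92.9 and 25.2 CPM of Tef, 12.4 and 1.59 CPM of Per3, 0.204 and 2.66 CPM of Npas2 and 0.611 and 14.2 CPM of Arntl, and its Nr1d1 was 29.5 and 21.2 CPM.

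**Figure D3:**
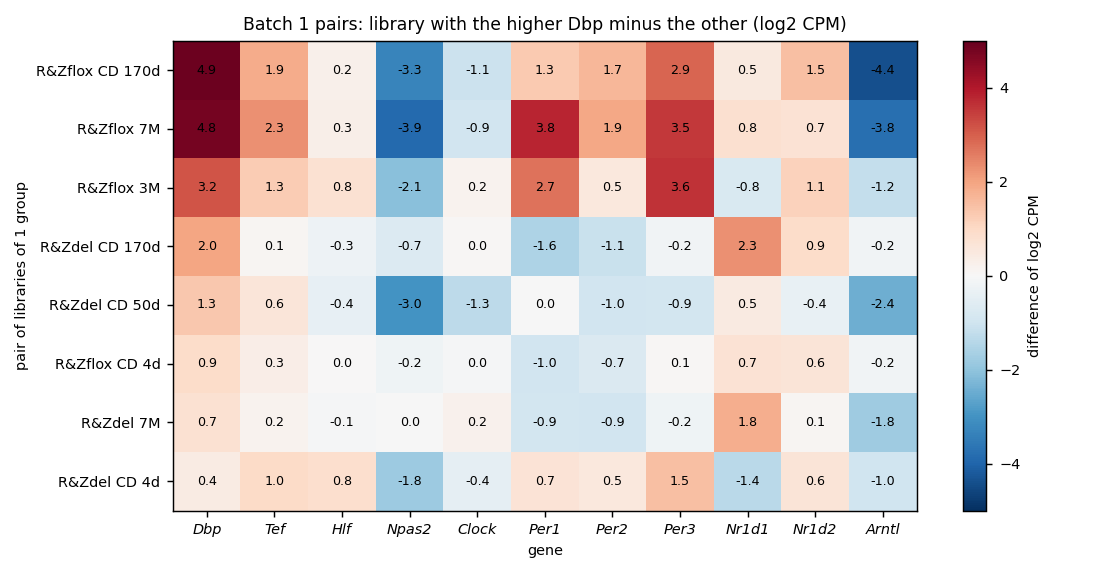
Log2 CPM difference between the 2 libraries of each batch 1 group, the library with more Dbp minus the other, for the 10 genes and Arntl. Tef is positive and Npas2 and Arntl negative in all 8 groups, and the differences of Per1, Per2 and Hlf take both signs.

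The deviations of log2 CPM from the group mean were then correlated over the libraries of every group with more than a single library. In batch 1 all such groups are pairs. The deviations there restate the pair differences above and are not a second result. In batch 1 (16 libraries), Tef followed Dbp with Pearson's r of 0.94 (exact permutation within groups, two-sided p 0.0078, the smallest the 256 arrangements allow) and Spearman's rho of 0.90 (exact permutation p 0.0078). Npas2 ran against Dbp with r of -0.91 and rho of -0.94, each with the same exact permutation p of 0.0078. With Benjamini-Hochberg adjustment over the 9 relations of the batch, both had an adjusted permutation p of 0.0352, and without the 2 libraries farthest from the median of Dbp r was 0.92 for Tef and -0.87 for Npas2. Those 2 libraries are the R&Zflox pair labelled 170 days after CD, of doubtful recovery time. The next widest pair, R&Zflox_7M with a log2 difference of Dbp of 4.78, was kept. It joins a male with a female whose title contradicts its group, and leaving out both pairs was not tested. Nr1d2 had r of 0.86 and rho of 0.89 (exact permutation p 0.0391 each, adjusted 0.117). Per3 had r of 0.85 and rho of 0.62 (exact permutation p 0.180 and 0.227, adjusted 0.264 and 0.340).

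In batch 2 (29 libraries), 1 relation passed the adjustment. Per2 followed Dbp with r of 0.60 and rho of 0.59 (permutation within groups, p 0.00305 and 0.00457, adjusted over 9 relations 0.0275 and 0.0411). Without the 2 libraries farthest from the median of Dbp its r was 0.40, and without the 1M libraries it was 0.25 and no longer past the threshold, so the relation rests on the 1M libraries. Tef had r of 0.68 and rho of 0.56 (permutation p 0.0382 and 0.0333, adjusted 0.104 and 0.0750). Without the 1M libraries its r was 0.12. Npas2 had r of -0.23 and rho of -0.06 (permutation p 0.359 and 0.790, adjusted 0.404 and 0.860), the 11 libraries with 0 counts of Npas2 being all in batch 2. Whether the relation of Npas2 with Dbp differed between the batches was not tested. The libraries of a group share treatment and induction, and the points also share a batch, within which library totals differed.

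**Figure D4:**
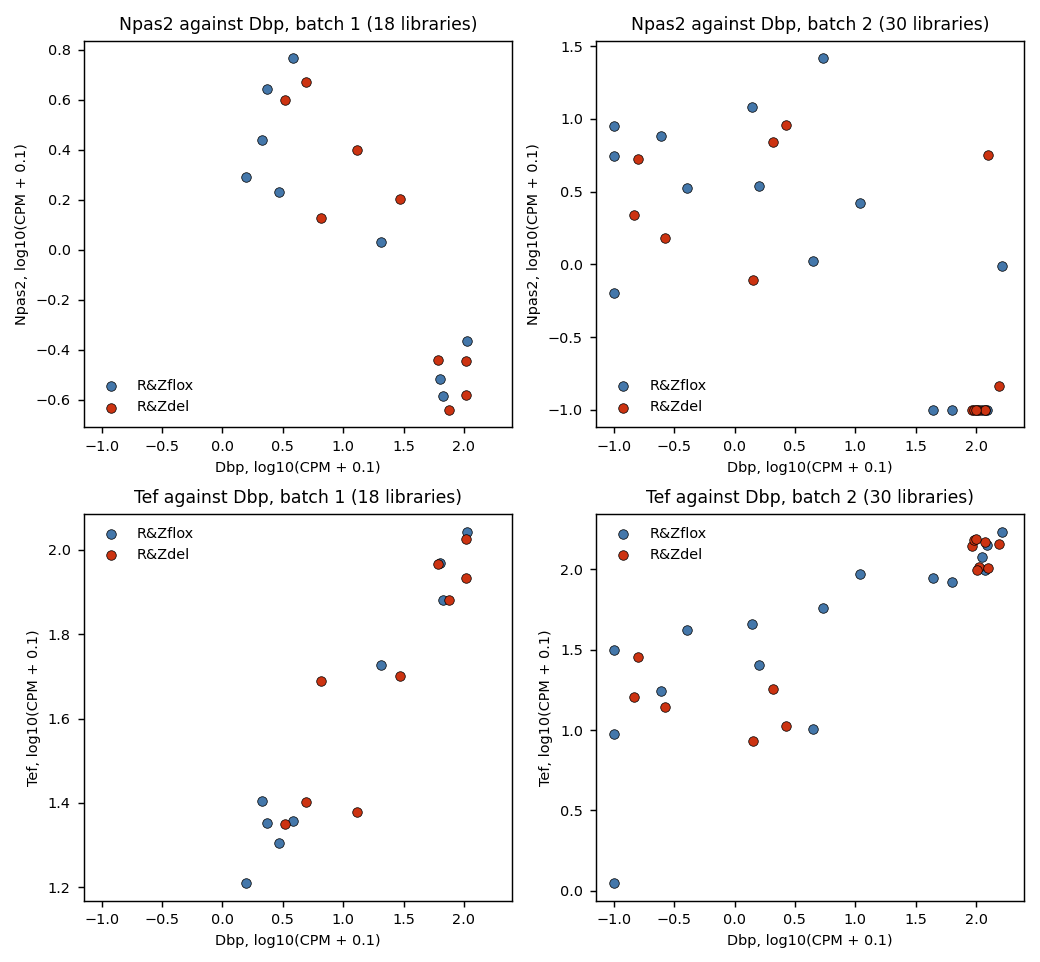
Npas2 and Tef against Dbp in each library of batch 1 (18 libraries with a group) and batch 2 (30 libraries), as CPM on log10 axes after adding 0.1. Tef rises with Dbp in both batches, and Npas2 is highest in libraries with little Dbp.

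The undamaged comparison of genotypes asked what loss of Rnf43 and Znrf3 changes before injury. With group, sex and batch in the model, 0 of the 10 genes were called at 1M, 0 at 3M and 0 at 7M, where 0.436%, 0.226% and 0.451% of the 12848 genes tested were called. The counts with an unadjusted p below 0.05 were 0, 0 and 2, and DESeq2 called 0, 0 and 0. Dbp had a log2 fold change (R&Zdel over R&Zflox) of 3.40 ± 3.85 at 1M (SE, edgeR adjusted p 0.981), with the levels of the R&Zdel libraries divided and 2 R&Zflox libraries at 0 counts. At 7M it was 0.09 ± 1.32 (edgeR adjusted p 0.998). Clock at 7M had -1.46 ± 0.43 (unadjusted p 0.0025 and adjusted p 0.240 by edgeR) and Hlf -0.73 ± 0.32 (edgeR adjusted p 0.488). In batch 2, Clock was 10.7, 5.79 and 5.34 CPM in R&Zdel_7M and 26.4, 20.1 and 9.03 CPM in R&Zflox_7M, and the groups overlapped. In batch 1 it was 4.61 and 5.37 CPM against 10.3 and 19.6 CPM, without overlap. Hlf was 19.4 to 22.2 CPM in R&Zdel_7M and 30.1 to 66.4 CPM in R&Zflox_7M of batch 2. In batch 1 Hlf was 18.6 and 17.8 CPM against 25.3 and 20.4 CPM. The share of all genes without overlap at 7M was not counted. The other 8 genes at 7M had log2 fold changes of -0.48 to 0.67. Their errors, up to 2.34 for Npas2, leave differences of several-fold undetectable here.

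The difference of the genotype effect was called for 0 of the 10 genes at 3M against 1M and for 0 at 7M against 1M, where 0% of all genes were called, with 0 and 1 at an unadjusted p below 0.05 and 0 and 0 by DESeq2. That 1 gene was Hlf, with -1.37 ± 0.48 (edgeR unadjusted p 0.00903, adjusted p 0.699). As a check of genotype, Glul, a WNT target in pericentral hepatocytes, was called higher in R&Zdel at all 3 ages (log2 fold change 2.32, 2.91 and 2.75). Glul thus kept to the genotype in the same libraries in which Dbp varied, for example 1210, 1315, 1003 and 821 CPM in R&Zdel_1M against 147, 180, 228 and 214 CPM in R&Zflox_1M. Counts over whole Rnf43 and Znrf3 genes do not check a deletion of some exons. Summed over Glul, Cyp2e1, Rnf43 and Znrf3, the level 4 days after CD was 2343 and 3370 CPM in R&Zdel and 1875 and 2363 CPM in R&Zflox, with overlap. At 50 days the sum was 7342 and 8511 CPM against 8891 CPM, and at 170 days 16707 and 16936 CPM against 7931 and 8494 CPM. The sum is thus no check of the genotype labels at 4 and 50 days.

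After PHx the comparison asked how livers without the ligases regenerate. By the adjusted rule 0 of the 10 genes were called at 7 days and 0 at 21 days, where 0.274% and 0.329% of all genes were called. The study's methods after PHx used an unadjusted p below 0.05 with the same fold change. That rule picked 1 of the 10 at 7 days and 0 at 21 days, beside 3.99% and 6.56% of all genes, and DESeq2 with adjustment called 1 and 0. The gene at 7 days was Per1, with 0, 0.286 and 0.163 CPM in R&Zdel and 0.305, 6.35 and 9.58 CPM in R&Zflox, and a log2 fold change of -5.21 ± 1.93 (edgeR unadjusted p 0.0136, adjusted p 0.705). R&Zdel lay below R&Zflox in all 3 libraries, though by only 0.305 against 0.286 CPM at the nearest. At 21 days Per1 was 22.7, 53.1 and 43.2 CPM in R&Zdel and 6.59, 4.07 and 17.8 CPM in R&Zflox. That is also without overlap but in the other direction, and the edgeR p of Per1 exceeded 0.05. The share of all genes without overlap between genotypes was not counted at 7 or 21 days. Across the 10 genes the median log2 fold change was -1.38 at 7 days and 0.50 at 21 days, beside -0.01 over all genes at both.

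Set against the undamaged 1M livers of the same genotype, 0 of the 10 genes were called in R&Zflox at 7 days (0.0235% of all genes called), 0 at 21 days (0%), 0 in R&Zdel at 7 days (0.0157%) and 0 at 21 days (0%). The counts at an unadjusted p below 0.05 were 0, 5, 3 and 1, and DESeq2 called 0, 1, 2 and 0. In R&Zflox at 21 days, Dbp had a log2 fold change of 4.35 ± 1.61 (edgeR adjusted p 0.639) and Per3 3.68 ± 1.46 (edgeR adjusted p 0.650). In R&Zdel at 7 days, Nr1d1 had -4.01 ± 1.37 (edgeR adjusted p 0.967), with 5.33, 17 and 0.814 CPM after PHx and 20.1 to 190 CPM at 1M. The difference of the genotype effect from that at 1M was called for 0 of the 10 genes at 7 days and 0 at 21 days, where 0% of all genes were called, with 3 and 0 at an unadjusted p below 0.05 and 0 and 0 by DESeq2. These comparisons and those between genotypes at 1M share the 1M libraries, among them the divided R&Zdel set. The 7-day mice are listed under 0.5M, so their time since induction differs from that of the 1M livers.

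Chronic damage followed by 4 days of recovery was the comparison in which members passed the adjusted rule. Per1, Per2 and Per3, the PER repressors, rose in R&Zdel and Nr1d1 fell, so 4 of the 10 genes were called, where 15.2% of the 11358 genes tested were called. Per2 was 19.8 and 13.8 CPM in R&Zdel and 0.766 and 1.32 CPM in R&Zflox, with a log2 fold change of 3.53 ± 0.63 (SE, n = 2 and 2, edgeR adjusted p 0.0080). Per1 was 10.9 and 6.73 CPM against 0.566 and 1.19 CPM, with 2.86 ± 0.63 (edgeR adjusted p 0.0179). Per3 was 11.4 and 3.94 CPM against 1.27 and 1.22 CPM, with 2.17 ± 0.83 (edgeR adjusted p 0.0997), just inside the threshold. Nr1d1 was 3.34 and 8.7 CPM in R&Zdel and 48.9 and 29.5 CPM in R&Zflox, with -3.22 ± 0.71 (edgeR adjusted p 0.0181). The 2 genotypes did not overlap in any of these 4 genes. With 2 libraries of each genotype this adds nothing to the calls, and the share over all genes was not counted.

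The other 6 genes were not called 4 days after CD, with log2 fold changes of -0.71 to 0.90. Dbp, with the 4 values given above, was low in both genotypes and higher in both R&Zdel than in both R&Zflox libraries (log2 fold change 0.90 ± 1.25). Npas2 was 1.24 and 4.6 CPM in R&Zdel and 1.6 and 1.86 CPM in R&Zflox. Arntl was 9.52 and 19 CPM against 13.2 and 14.7 CPM. The genotypes overlapped in both of these. The median log2 fold change of the 10 genes was 0.40, beside 0.06 over all genes. The call of Per3 was lost without any 1 of the 4 libraries at 4 days, under the size factors of DESeq2 in place of TMM, with the replicate number as a block, and when all libraries whose labels disagree, 4 of the 5 without a group among them, were placed by their characteristics. Without R&Zflox_CD_4d replicate 1, and likewise with that placement, 2 of the 10 genes were called, Per1 and Per3 having lost the call. The edgeR adjusted p of Per1 was then 0.134 and 0.218.

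Of 15 further clock genes, 13 could be tested at 4 days, of which 5 were called higher and 1 lower, where 15.2% of all genes tested were called in either direction. Among them, Usp2, a clock-regulated ubiquitin protease, had a log2 fold change of 3.78 ± 1.10 (edgeR adjusted p 0.0427), with 31.6 and 53 CPM as the lower and higher R&Zdel library and 2.13 and 2.3 CPM in R&Zflox. Noct, a rhythmic phosphatase, had 2.81, Wee1, a cell cycle kinase under clock control, 1.94 and Csnk1e, the casein kinase that phosphorylates PER proteins, 1.75. Nfil3 fell by 1.48 ± 0.32 on the log2 scale (edgeR adjusted p 0.0169). The median of the 13 was 0.94. In every other comparison between genotypes 0 of these genes were called.

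Of 8 genes known as targets of the PAR bZIP factors, 2 were called at 4 days, where 15.2% of all genes were called. These were Nr1i3, the nuclear receptor CAR, with 1.66 and Cyp2a5, a cytochrome P450 that is also high in pericentral hepatocytes, with 1.93. Cyp2a5 was also called higher in R&Zdel at 1M (2.29), 3M (2.36) and 7M (1.98), where Dbp, Tef and Hlf were not called. The median of the 8 targets was 0.89 at 4 days, 0.27 at 1M, 0.85 at 3M and 0.59 at 7M.

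Several other lists moved with genotype in the same 4 libraries. The 4 cholangiocyte markers were all called higher in R&Zdel at 4 days, Epcam by 6.56 and Krt19 by 4.56 on the log2 scale, and their summed level was 219 to 382 CPM against 16.5 to 16.8 CPM. Of 5 immediate early genes, 4 were called higher (Atf3 2.78, Jun 2.17, Ier3 2.13 and Fos 1.93), with a summed level of 115 to 145 CPM against 18.2 to 28.1 CPM. Of 6 temperature-responsive genes, Hspa1b (2.24), Hsph1 (1.91), Dnajb1 (1.34) and Rbm3 (1.23) were called higher and Cirbp (-1.43) lower, with sums of 223 to 312 CPM against 115 to 116 CPM. Among fasting and feeding genes, Pck1 (-1.63) was called lower. Of 4 glucocorticoid-responsive genes 0 were called, with sums of 159 to 208 CPM against 87.6 to 93.8 CPM. Among markers of other liver cells, Col1a1 of stellate cells and fibroblasts (3.18) was called higher and Lyve1 of endothelial cells (-2.01) and Alas2 of erythroid cells (-3.02) lower, while 0 of 4 Kupffer cell and macrophage, 0 of 3 lymphocyte and 0 of 3 pancreas markers were called. The 4 hepatocyte markers summed to 69434 to 85461 CPM in R&Zdel and 87581 to 91182 CPM in R&Zflox, which fits the labelled tissue. The part of each of these in the difference of the Per genes and Nr1d1 was not tested. In whole liver, fewer cells of a type and less RNA per cell cannot be told apart.

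At 50 days after CD, 0 of the 10 genes were called, where 5.58% of all genes were called, with 2 at an unadjusted p below 0.05 and 2 called by DESeq2. Hlf was 12.9 and 16.9 CPM in R&Zdel and 25.3 CPM in the single R&Zflox library, with a log2 fold change of -1.02 ± 0.34 (edgeR adjusted p 0.123). Per2 was 2.66 and 5.17 CPM against 11.1 CPM, with -1.79 ± 0.66 (edgeR adjusted p 0.155). At 170 days, with both controls of doubtful recovery time, 0 of the 10 were called, where 0.625% of all genes were called, with 5 at an unadjusted p below 0.05 and 3 called by DESeq2. Dbp was 3.19 and 12.9 CPM in R&Zdel and 63.2 and 2.02 CPM in R&Zflox, and the genotypes overlapped. Tef had -1.56 ± 0.57 (edgeR adjusted p 0.422), Per1 -1.93 ± 0.63 (0.346), Per3 -2.19 ± 0.82 (0.430) and Nr1d1 1.51 ± 0.66 (0.530). Hlf had -0.82 ± 0.29 (edgeR adjusted p 0.394), with 14.9 and 12.4 CPM in R&Zdel and 22.6 and 19.1 CPM in R&Zflox. Tef was 22.3 and 23.8 CPM in R&Zdel and 92.9 and 25.2 CPM in R&Zflox, so that the second control lay close to the R&Zdel livers, and Per3, with 1.89 and 1.66 against 12.4 and 1.59 CPM, overlapped.

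**Figure D5:**
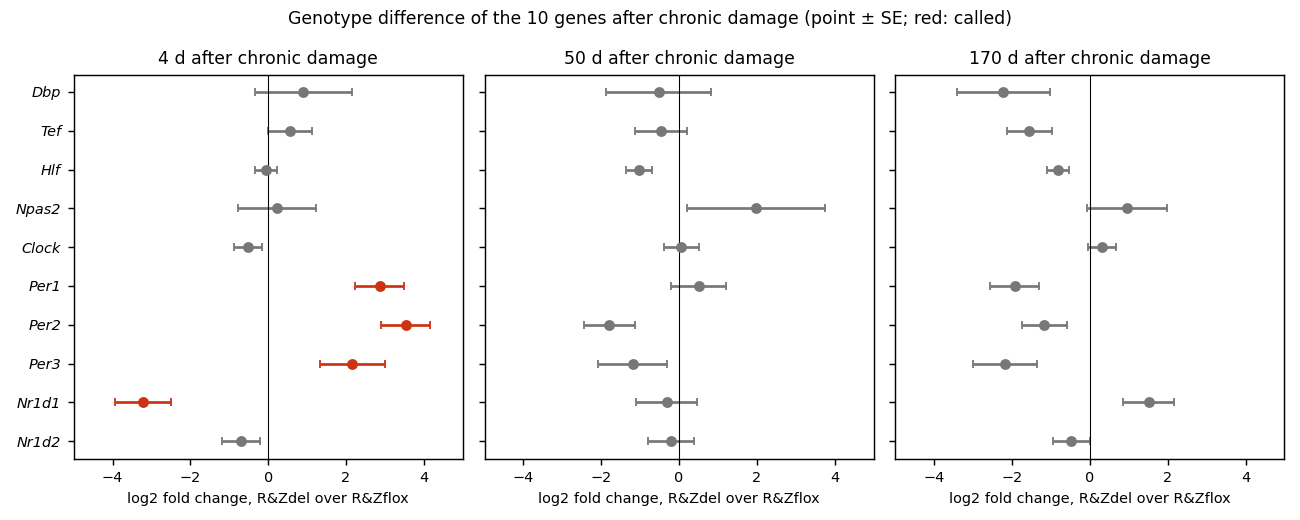
Log2 fold change of R&Zdel over R&Zflox for the 10 genes 4, 50 and 170 days after chronic damage, with called genes in red. Error bars are the SE derived from edgeR's F statistic. At 4 days Per2, Per1 and Per3 lie above 0 and Nr1d1 below, and at 50 and 170 days no gene is called.

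The change of the genotype effect with time after damage, with which time since induction also rose, was tested in its own right. From 4 to 50 days it was called for 1 of the 10 genes, where 1.50% of all genes were called. This was Per2, whose log2 fold change between genotypes was lower by 5.32 ± 0.90 at 50 days (edgeR adjusted p 0.0472). At 50 days R&Zflox is a single library, assumed in the model to vary like the other groups, and the call rests on it. Without either R&Zflox library of 4 days, R&Zdel_CD_4d replicate 2 or R&Zdel_CD_50d replicate 1 the count was 0. From 4 to 170 days it was called for 4 of the 10, where 6.92% of all genes were called, and the 170-day side of it rests on the same doubtful controls. Per1 had a difference of -4.79 ± 0.89 (edgeR adjusted p 0.0300), Per2 -4.71 ± 0.85 (0.0271), Per3 -4.36 ± 1.17 (0.0791) and Nr1d1 4.73 ± 0.97 (0.0370). The count was 0 without R&Zdel_CD_170d replicate 2 or R&Zflox_CD_4d replicate 1, 2 without R&Zdel_CD_4d replicate 1 and 7 without R&Zflox_CD_170d replicate 2. Of the further clock genes, Wee1 was called in the first of these tests and Csnk1e, Noct, Usp2 and Wee1 were among those called in the second, all of these lower at the later time.

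The genes whose deviations within batch 2 groups were most like those of Dbp were found over 13293 genes and 29 libraries. Efnb2 (r 0.76), Nek3 (0.75), Zbtb40 (0.74), Zkscan7 (0.72), Kctd10 (0.71), G6pc3 (0.71), Sirt5 (0.68) and Tef (0.68) ranked highest. In batch 1, over 16 libraries, Tef had r of 0.94 and the other 7 had -0.55 to 0.19. Of the 5 genes that ran most against Dbp, Tma7 (-0.71), Slfn5 (-0.69), Hsd3b1 (-0.68), Mrps22 (-0.65) and Rnase6 (-0.63), Mrps22 had -0.83 in batch 1. For Npas2 the highest were Rps15a (0.74), A430010J10Rik (0.72), Slk (0.71), 5031439G07Rik (0.70) and Cox6b1 (0.69), which had -0.08 to 0.30 in batch 1 where they could be compared. Among the listed clock genes, Arntl had r of -0.91 to Dbp in batch 1 and -0.58 in batch 2, Usp2 0.83 and 0.42, Ciart 0.81 and 0.16, Cry1 -0.70 and -0.18 and Nfil3 -0.63 and -0.45.

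Some of these counts can hold reads of a neighbour, or lack own reads where exons overlap, since the library protocol keeps no strand. How reads in exons of more than a single gene were counted was not checked. Exons of Dbp overlap those of Sphk2 on the other strand over 539 bases (21.4% of its exon bases), those of Nr1d1 overlap Thra over 471 bases (17%) and those of Per2 overlap Gm35591 over 698 bases (11.6%). Clock shares 652 bases with Gm7467 (5.98%) and Per3 139 bases with Uts2 (2.02%). Tef, Hlf, Npas2, Per1 and Nr1d2 overlap no other gene's exons in the annotation.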

How the data were processed

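Liver RNA was converted with the Smart-Seq2 protocol and sequenced as single reads. The authors deposited raw counts per gene symbol, 1 table per library in batch 1 and 1 table for batch 2. Per the labels, reads were trimmed with Trim Galore and aligned with STAR 2.5.0a to mm10. Exon reads were counted with featureCounts, version 1.5.0-p3 per the file headers of batch 1 and 1.5.0-p1 per the labels of batch 2, without strand in batch 1. Smart-Seq2 keeps no strand and no molecular identifiers.

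Only the deposited counts were used, over the 34490 symbols that the batches share (of 49997 and 49568). CPM is the count over the library total. Genes were tested in R 4.3.3 with edgeR 4.0.16 (quasi-likelihood F test, TMM, Benjamini-Hochberg over all genes tested). Undamaged libraries of both batches were fitted together with group, sex and batch, PHx with undamaged 1M libraries of batch 2 with group and sex (both with CPM above 1 in at least 3 libraries), and chronic damage libraries of batch 1 with group (CPM of at least 1 in no fewer than every other library). DESeq2 1.42.0 was an alternative, and the tests were checked on simulated counts. Covariation used log2 CPM with a prior count of 2 after subtracting group means, with 100000 permutations within groups in batch 2 and all 256 arrangements in batch 1.

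The genes, the lists of other genes and the tests were chosen with earlier results of these data known. Named genes were the 10 genes, most of the members of the lists that were called, a few further clock genes, and the 8 most and 5 least like Dbp and 5 most like Npas2 in batch 2. Replicate numbers were shared between genotypes, and the correlations of same-numbered deviations were -0.294 to 0.421 at 7M and between -0.372 and 0.315 elsewhere, so they were not taken to pair samples. The 5 libraries without a group entered no comparison. Values of some listed genes are not reported here.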

Additional observations from a re-analysis of the deposited data

Results flagged for a closer look

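Tef in R&Zflox_1M replicate 2 of batch 2 stood apart with 93.9 CPM, while the other 3 libraries of its group had 1.02 to 10 CPM. It was 1 of 20 sets of gene and group with 4 or more libraries that were looked at, and chance alone sets a library apart in about 1 of 20 by the critical value used. The same library had the highest Dbp of its group.

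The genotype effect differed between times after chronic damage for 4 genes, tested with edgeR's interaction contrasts. Per2 had a difference of -5.324 on the log2 scale at 50 against 4 days, where the 50-day controls are a single library. At 170 against 4 days, Nr1d1 had 4.735, Per1 -4.795, Per2 -4.711 and Per3 -4.356, and both 170-day controls are also entered under 50 days in the study's sample list.

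In 4 of the 5 batch 1 libraries left without a group because their labels contradict each other, some of the 10 genes were above the highest R&Zflox library of that batch, where the highest were 106 CPM for Dbp, 110.4 for Tef, 25.31 for Hlf, 12.32 for Per1, 11.11 for Per2, 18.21 for Per3, 97.01 for Nr1d1 and 43.66 for Nr1d2. The library with indices i701 and i503 had 123.3 CPM of Dbp, 112 of Tef, 29.15 of Hlf, 14.99 of Per1 and 26.03 of Per3. The library with i704 and i502 had 14.11 CPM of Per1 and 47.6 of Nr1d2. The library with i707 and i517, whose genotype is given as R&Zflox by its labels and as R&Zdel by the study's sample list, had 19.56 CPM of Per1, 23.83 of Per3, 104.8 of Nr1d1 and 46.42 of Nr1d2, while R&Zdel libraries of the batch reached 139 CPM of Nr1d1. The library with i711 and i503 had 123.3 CPM of Dbp, 145.4 of Tef, 35.42 of Hlf, 24.59 of Per1, 18.47 of Per2, 39.92 of Per3 and 52.7 of Nr1d2.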

How the results depend on the processing

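The counts of the 10 genes called were 0 under every alternative run for the undamaged comparisons between genotypes. After PHx, where 0 were called, DESeq2 called 1 between genotypes at 7 days, 1 in R&Zflox at 21 days against 1M and 2 in R&Zdel at 7 days against 1M. Without a filter on low counts the counts were 3 between genotypes at 7 days, 1 in R&Zflox at 7 days and 4 at 21 days against 1M, 3 in R&Zdel at 7 days against 1M and 3 for the difference of the genotype effect at 7 days. Between 21 and 7 days, a comparison chosen after seeing the data, the counts in R&Zflox and R&Zdel were 2 and 6 with DESeq2, 4 and 6 without the filter, 1 and 1 with the likelihood ratio test, 1 and 2 in males and, in R&Zdel, 4 from the PHx libraries alone. At 4 days after chronic damage the count was 4, 2 to 3 when a replicate was left out and 2 with 4 further libraries placed by their characteristics. At 50 days, in place of 0, it was 2 with DESeq2, 3 without the filter, 2 with the likelihood ratio test and 3 from that time point alone. At 170 days, in place of 0, it was 3 with DESeq2, 6 without the filter, 1 with the likelihood ratio test and 0 to 4 when a replicate was left out (4 without R&Zflox_CD_170d replicate 2). For the change from 4 to 50 days, in place of 1, it was 2 with DESeq2, 5 without the filter, 2 with the likelihood ratio test, 0 to 1 when a replicate was left out and 0 with the added libraries. For the change from 4 to 170 days, in place of 4, it was 0 to 7 when a replicate was left out and 1 with the added libraries. The causes were not tested. With the replicate number as a block the counts were 3 at 4 days, 1 and 3 for the changes to 50 and 170 days, and 0 elsewhere. The sex of the library that did not match its label changed no count of the 10 genes.

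Of 523 refits of 36 single log2 fold changes, 450 kept their direction and side of the threshold, 31 lost the call, 39 gained it and 3 reversed. The reversals were at 170 days, Nr1d1 to -0.0387 without R&Zdel_CD_170d replicate 2, and Per1 to 1.27 and Per3 to 0.88 with the added libraries.

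For covariation with Dbp, r of Nr1d2 in batch 1 passed the threshold with TMM scaling (0.90). In batch 2, r of Per2 was 0.69 in undamaged libraries, 0.41 in males and 0.25 without the 1M libraries, none past the threshold, and r of Hlf in males was 0.50, past it. In males r changed sign for Npas2 (0.27), Clock (-0.0347), Per3 (-0.13), Nr1d1 (-0.18) and Nr1d2 (-0.21), and without the 1M libraries, an alternative chosen after seeing the data, for Npas2 (0.35), Clock (-0.0805), Per3 (-0.41), Nr1d1 (-0.0651) and Nr1d2 (-0.21).

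Counts of all genes called moved more: 14 to 302 around 56 at 1M, 0 to 134 around 29 at 3M, 14 to 204 around 58 at 7M, 19 to 213 around 35 and 29 to 437 around 42 at 7 and 21 days after PHx, and 813 to 2956 around 1729, 0 to 1671 around 634 and 0 to 600 around 71 at 4, 50 and 170 days after chronic damage. With 1 to 4 libraries a group, counts down to 0 and wide spread within groups, differences of the size of these errors could not be detected.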

Other observations

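The fifth library without a group (i705 and i503) had 20.7 CPM of Dbp, 71.4 of Tef, 0.703 of Npas2 and 7.62 of Arntl. In the other 4, Dbp was 45.6 to 123 CPM, Npas2 0.0562 to 0.349 CPM and Arntl 0.393 to 5.02 CPM. Over these 5 libraries Npas2 and Arntl were highest in the library with the least Dbp.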
